A study of Homo sapiens with 4 samples.

Results

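The genes described here are those of 8 spliceosomal small nuclear RNAs (snRNAs), and the data are SOX4 peaks found at them by chromatin immunoprecipitation sequencing. The cells were U251, an established human glioblastoma line. All samples came from U251 cells that overexpressed SOX4 with an HA tag and were taken 3 days after virus infection. An antibody to HA was used for 3 immunoprecipitations, called IP 1, IP 2 and IP 3, and 1 input of chromatin was sequenced without this step. Each immunoprecipitation started from 150 µg of chromatin and 5 µg of antibody. The labels call the immunoprecipitations independent and do not say that they came from separate cultures, so the spread between them may be technical. No immunoprecipitation from cells without HA-SOX4 was analysed here, so signal that the antibody gives without the tag cannot be told apart from signal of the tagged protein. The tagged protein was supplied by a virus and adds to any SOX4 of the cells.

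For each gene, the 8 being RNU2-2P, RNU4-1, RNU4-2, RNU5A-1, RNU5B-1, RNU11, RNU4ATAC and RNU12, 1 position on hg19 was given, and every deposited peak within 1 kb of it was taken. A peak in reach of 2 positions was counted for the nearer one. This gave 17 peaks, with 7 of the 627 peaks of IP 1, 5 of the 524 of IP 2 and 5 of the 407 of IP 3. Merged over the lists, they formed 7 of the 862 regions of the series. The genes were chosen with the peak lists known. Presence, pileup, fold and background all come from the peak call that chose them, so they are given as descriptions with no test.

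The spliceosome removes introns from pre-mRNA, and its core consists of snRNAs bound by proteins. U1, U2, U4, U5 and U6 build the major spliceosome. The minor spliceosome, which removes a rare class of introns, uses U11, U12, U4atac and U6atac together with U5. Genes of U2, U4, U5, U11, U12 and U4atac are short genes transcribed by RNA polymerase II from compact promoters with their own set of elements, while U6 and U6atac are transcribed by RNA polymerase III. SOX4 is a transcription factor with an HMG box, and the title of the series puts its question at tRNA genes, which are RNA polymerase III genes.

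Peaks stood in every list at 5 of the 8 genes, RNU2-2P, RNU4-2, RNU5A-1, RNU5B-1 and RNU11. RNU12 had a peak in IP 1 alone. No peak was counted for RNU4-1 and RNU4ATAC. RNU4-1 did have a peak of IP 1 in reach, at 673 bp, but it was counted for RNU4-2, whose position was nearer. RNU4ATAC had no peak in reach in any list. Of the 5 genes of U2, U4 and U5, all except RNU4-1 thus had a peak in every list. The 3 genes particular to the minor spliceosome differed from each other, with a peak in all 3 lists, in 1 list and in none. Of the 7 merged regions, 5 held a peak of every list and 2 a peak of 1 list. Over all 862 regions of the series, 30.5% held a peak of every list and 51% a peak of 1 list alone. Since the genes were chosen by such peaks, nothing is read from the difference.

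Each peak is described by 3 numbers. The pileup counts the extended reads that cover the summit. The local background is the input read density at or around the summit, scaled to the immunoprecipitation. It was recovered as (pileup + 1) divided by fold, minus 1. The fold is the authors' ratio of the first to the second, with 1 added to each. Of the 17 member peaks, 8 had a background that matched input reads within 1 extended read. In the other 9 it matched whole reads over 1 kb, and 0 peaks matched over 10 kb alone. A match over 1 kb is always a match over 10 kb too, so the count alone does not fully separate these windows. To compare lists of different depth, pileup and background are also given as multiples of the genome average, which was 1.45 reads in IP 1, 1.36 in IP 2 and 1.27 in IP 3. Intervals on pileups are exact 95% Poisson intervals, cover counting error only, and ignore that a summit is chosen as a maximum.

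**Figure D1:**
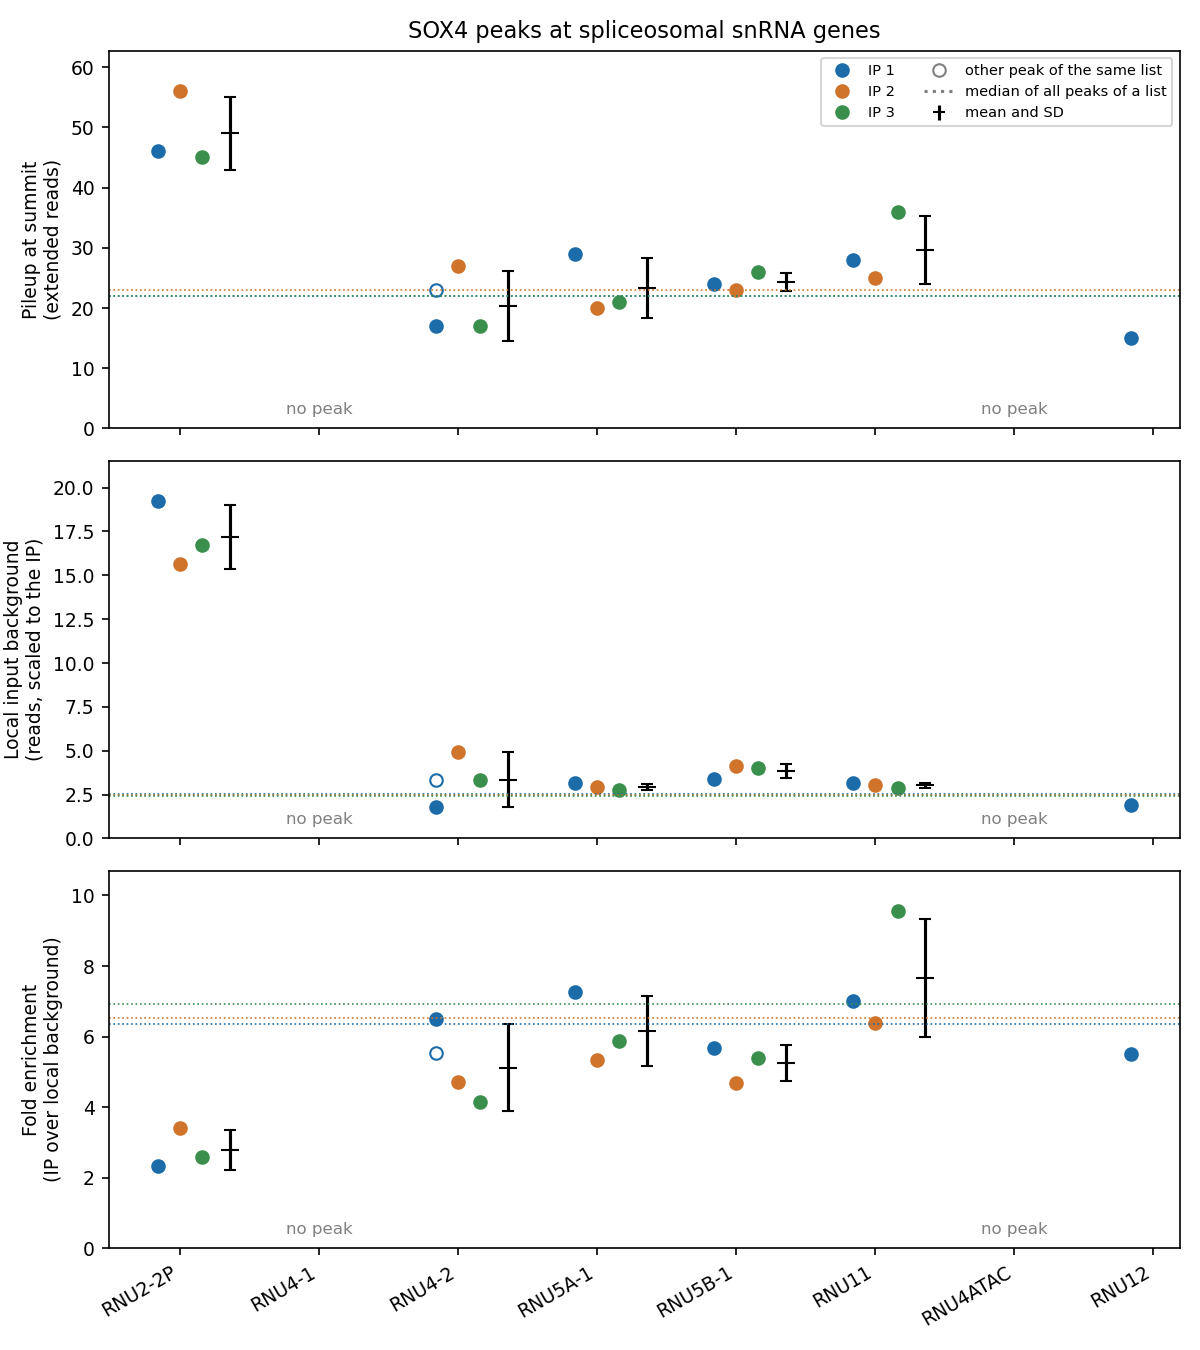
Pileup at the summit, local input background and fold enrichment (vertical axes, from top to bottom) at each of the 8 genes. Points are peaks of IP 1, IP 2 and IP 3, the open point is the peak of IP 1 over RNU4-2, whose fold is lower than that of the other peak of IP 1 there, black marks are mean and SD over the 3 lists, and dotted lines are the medians of all peaks of a list. RNU2-2P has pileups of 45 to 56 reads, above all the other points, and folds of 2.32 to 3.42, below all of them.

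RNU2-2P, a gene of the U2 snRNA that pairs with the branch point of the intron, stood apart from the other members in each of these measures. The gene table of RefSeq lists it as RNU2-2, classed as snRNA and not as pseudogene, with WDR74 before it and SNHG1 after it in gene order. Its pileup was 46 reads in IP 1, 56 in IP 2 and 45 in IP 3. Each of these exceeded every pileup at the other members, the highest of which was 36 reads. Relative to the genome average, the pileup was 31.7, 41.2 and 35.3 times. The mean of 49.0 ± 6.08 reads (SD, n = 3) put RNU2-2P at rank 21 of the 263 regions with a peak in every list.

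The input stood out there more than the immunoprecipitation. The local background was 19.2 reads in IP 1, 15.6 in IP 2 and 16.7 in IP 3, or 13.2, 11.5 and 13.1 times the genome average. No other peak of IP 1 or IP 2 had a background as high. In IP 3 only 2 peaks did. Among the 263 regions with a peak in every list, RNU2-2P had the highest mean background, 12.6 times the genome average, and the next region, on chromosome 7 from 1651214 to 1651503 (hg19), had 5.09 times. In whole reads before scaling, the background matched 23 input reads over the 163 bp extension of IP 1, 19 over the 155 bp of IP 2 and 25 over the 179 bp of IP 3. So the input read density at the summit itself set this background, above that of the wider windows.

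With a high numerator and a high denominator, the fold at RNU2-2P was low. IP 1 gave 2.32, IP 2 gave 3.42 and IP 3 gave 2.60, a mean of 2.78 ± 0.57 (SD, n = 3). This was the lowest mean fold of the 263 regions, followed by 4.23 at the chromosome 7 region named above. In IP 1 it was the lowest fold of all 627 peaks. The −log10 q was 2.84, 10.1 and 3.92, so the call was much firmer in IP 2 than in the others. The pileups themselves did not separate the lists, as their intervals ran from 33.7 to 61.4 reads in IP 1, from 42.3 to 72.7 in IP 2 and from 32.8 to 60.2 in IP 3.

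**Figure D2:**
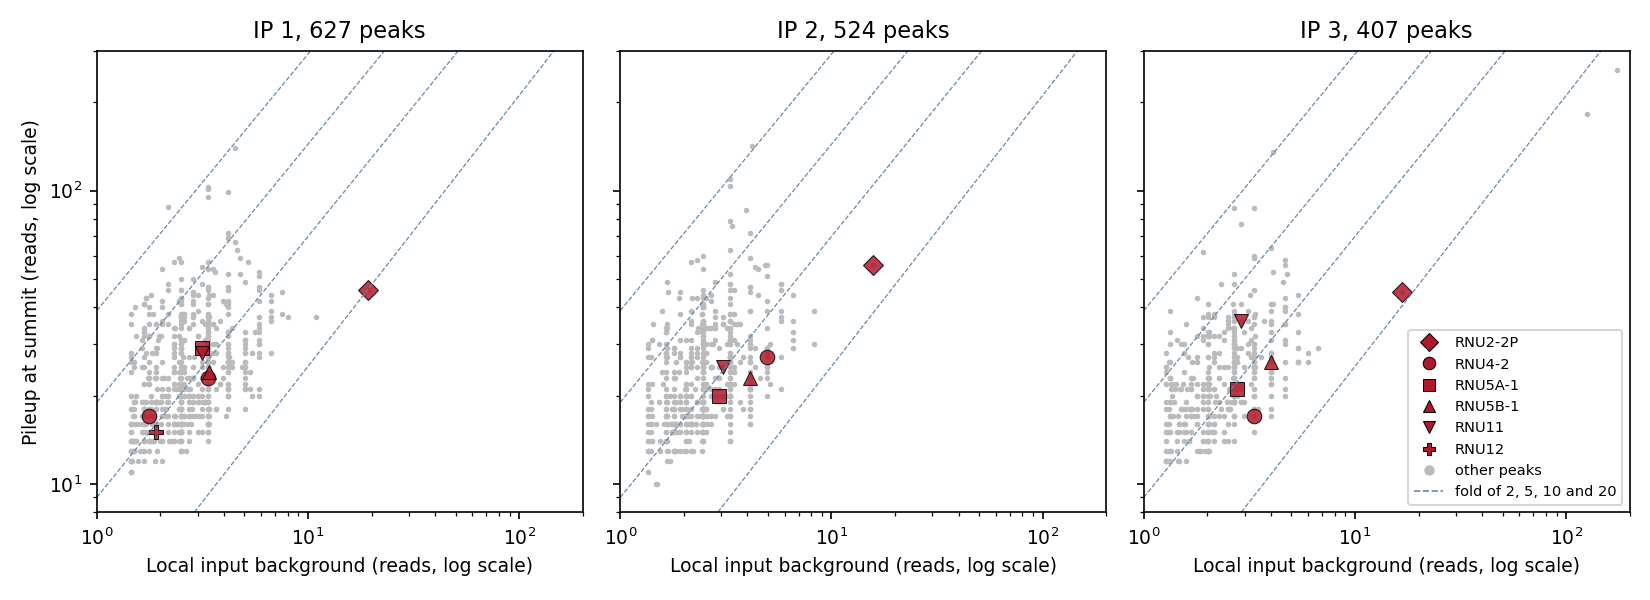
Pileup at the summit against local input background for every peak of IP 1, IP 2 and IP 3, both axes in reads on a log scale. Red symbols are peaks at the snRNA genes, grey points are all other peaks, and dashed lines mark folds of 2, 5, 10 and 20 from right to left. RNU2-2P lies far to the right of the other members at backgrounds of 15.6 to 19.2 reads, and the other members lie within the cloud of all peaks.

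The U2, U4 and U5 families have many further copies in the genome, and reads of near-identical copies can be misplaced or lost. The RefSeq table (assembly GRCh38.p14) names 71 entries of the U2 family, of which 68 are pseudogenes, 91 of U4 with 89 pseudogenes and 34 of U5 with 29 pseudogenes. The families of U11, U4atac and U12 have 6, 18 and 2 entries. The treatment of reads that fit several copies equally well is not stated in the labels or the file headers. The part of such copies in the background at RNU2-2P was not tested.

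The U4 snRNA pairs with U6 and holds it inactive until the spliceosome is activated. Its genes RNU4-1 and RNU4-2 are neighbours, and their positions lie 1340 bp apart on chromosome 12. Only RNU4-2 had a peak over its position, and it had one in every list. These peaks had a pileup of 23 reads in IP 1, 27 in IP 2 and 17 in IP 3. Fold enrichment was 5.53, 4.71 and 4.14, a mean of 4.79 ± 0.69 (SD, n = 3), at rank 255 of 263 from the top. Their backgrounds were 2.30, 3.63 and 2.62 times the average of the genome. RNU4-2 therefore lay among the weakest regions found in every list, though its background, at rank 43 of 263, was not extreme. In the RefSeq order SIRT4, the gene of a mitochondrial sirtuin, comes between the U4 genes. Gene order alone does not show that SIRT4 lies within the 1340 bp between their positions.

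IP 1 had another peak between the U4 genes, from 120730068 to 120730233 on chromosome 12. Its nearest base was 502 bp from the position of RNU4-2 and 673 bp from that of RNU4-1, so it was counted for RNU4-2. It had 17 reads, a background of 1.22 times the genome average and a fold of 6.50. Taking the peak with the highest fold in each list puts this peak in place of the one over RNU4-2 in IP 1, and the mean fold becomes 5.12 ± 1.23 (SD, n = 3). IP 2 and IP 3 had no peak there. In those lists the peak nearest to RNU4-1 was the one over RNU4-2, at 1215 and 1246 bp. These are also the peaks just outside the reach of 1 kb, and the peak of IP 1 at 673 bp from RNU4-1 is the one just inside it.

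U5 aligns the exons for joining and serves both spliceosomes. RNU5A-1 and RNU5B-1 lie 8626 bp apart on chromosome 15, with no other gene of the RefSeq table between them. At RNU5A-1 the pileup was 29 reads in IP 1, 20 in IP 2 and 21 in IP 3. Fold enrichment was 7.26, 5.34 and 5.86, a mean of 6.15 ± 0.99 (SD, n = 3). At RNU5B-1 the pileup was 24, 23 and 26 reads, and the fold was 5.67, 4.69 and 5.39, a mean of 5.25 ± 0.51. The fold of RNU5A-1 exceeded that of RNU5B-1 in 3 of 3 lists, by 0.90 ± 0.60 on average, although the ranges of both genes overlapped.

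The pileups of the U5 genes did not follow that order in every list. In IP 1, where the folds differed most, RNU5A-1 had the higher pileup, and in IP 2 and IP 3 it had the lower. The background was 2.16 times the genome average at RNU5A-1 in every list and 2.35, 3.03 and 3.15 times at RNU5B-1. At RNU5A-1 the background matched 23 input reads in 1 kb in all 3 lists, which is the same window of the same input seen 3 times and not a repeat measurement. A background that is whole in 1 kb is also whole in 10 kb, so those 2 windows were not told apart by this count. At RNU5B-1 the count was 25 reads in 1 kb in IP 1, and 5 and 6 reads within 1 extended read in IP 2 and IP 3.

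RNU11 had the highest mean fold among the members, though RNU5A-1 had the higher fold in IP 1. U11 recognises the 5′ splice site of minor introns. Its pileup was 28 reads in IP 1, 25 in IP 2 and 36 in IP 3. IP 3 was the highest although it had the fewest tags, and relative to the genome average the values were 19.3, 18.4 and 28.2 times. The fold was 7.02, 6.40 and 9.55, a mean of 7.66 ± 1.67 (SD, n = 3). The background was 2.16, 2.25 and 2.25 times that average, matching 23, 24 and 24 input reads in 1 kb. These values come from nearly the same stretch of 1 shared input, so their evenness is not an agreement of separate measurements. RNU11 was the only member whose −log10 q reached 10 in every list, at 12.8, 10.2 and 21.6.

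Compared with the other regions found in every list, RNU11 was of middling strength. It ranked 165 of 263 by mean fold and 134 of 263 by mean pileup. The 2 regions most like RNU11 over pileup and background in the 3 lists (6 values, on a log2 scale) were chromosome 1 from 161391796 to 161392053, and a region of chromosome 10 between 43633016 and 43633362. Their folds were 7.14, 7.78 and 8.98, and 6.38, 6.25 and 7.54. In the gene order of RefSeq, RNU11 lies between TAF12-DT, the divergent transcript of a TFIID subunit gene, and GMEB1.

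RNU12, the gene of the U12 snRNA that pairs with the branch point of minor introns, had a single peak. In IP 1 it held 15 reads (interval 8.40 to 24.7), a background of 1.31 times the genome average and a fold of 5.50, with a −log10 q of 4.99. Of the peaks of IP 1, 9.73% had a lower pileup. The nearest peaks on chromosome 22 in IP 2 and IP 3 lay 15134 kb and 24741 kb away. On the background seen in IP 1, scaled to their tags and extension, a pileup of 11 reads would have reached the lowest −log10 p of either list. The pileup of IP 1 scaled in the same way came to 14.1 reads in IP 2 and 13.2 in IP 3. A pileup of 11 reads lies within the counting interval of IP 1, so IP 2 and IP 3 were not shown to differ from IP 1 at RNU12.

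RNU4ATAC, whose product takes the place of U4 in the minor spliceosome, had no peak near it in any list. The nearest peaks on chromosome 2 lay 9255 kb away in IP 1 and 6300 kb away in IP 2 and IP 3. RNU4ATAC lies within CLASP1 and comes after CLASP1-AS1 in the RefSeq order. The lowest pileup of any deposited peak was 11 reads in IP 1, 10 in IP 2 and 12 in IP 3, so signal below about that height was not detectable in these lists. A call on a higher local background needs more reads. The lists give no background where they have no peak, so no upper limit on the signal at RNU4ATAC is read from this.

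Ordered by mean fold, the genes with a peak in every list were RNU11, RNU5A-1, RNU5B-1, RNU4-2 and RNU2-2P. The ranges of neighbours in this order overlapped for RNU11 and RNU5A-1, for RNU5A-1 and RNU5B-1 and for RNU5B-1 and RNU4-2. They did not overlap for RNU4-2 and RNU2-2P, with 4.14 as the lowest fold of the former and 3.42 as the highest of the latter. RNU11 exceeded RNU5A-1 in 2 of 3 lists, by 1.50 ± 2.00 on average, so that difference was smaller than its spread. RNU5B-1 exceeded RNU4-2 in only 1 of 3 lists, by 0.13 ± 1.04 on average, when the highest fold of each list was taken. The peaks over RNU4-2 had folds of 5.53, 4.71 and 4.14, against 5.67, 4.69 and 5.39 at RNU5B-1. With those peaks RNU5B-1 was higher in IP 1 and IP 3 and lower in IP 2. By mean pileup RNU2-2P came first, and RNU11 followed with 29.7 ± 5.69 reads. RNU5B-1 had 24.3 ± 1.53, RNU5A-1 23.3 ± 4.93 and the peaks over RNU4-2 22.3 ± 5.03 reads.

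No immunoprecipitation was the highest throughout. Relative to the genome average, the pileup was highest in IP 2 at RNU2-2P and RNU4-2, in IP 1 at RNU5A-1 and in IP 3 at RNU5B-1 and RNU11. The counting intervals of the 3 lists overlapped at each of the 5 genes. With the peaks over RNU4-2 taken for that gene, the coefficient of variation of the fold ran from 9.64% at RNU5B-1 to 21.9% at RNU11. Over the other 258 regions found in every list its median was 15.4%.

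Most member peaks had a lower fold and a higher background than the median of their list. The member peaks had a median fold of 5.67 in IP 1, 4.71 in IP 2 and 5.39 in IP 3, against 6.36, 6.52 and 6.91 over all peaks of these lists. Below the median fold of their list lay 13 of the 17 member peaks, and above its median background lay 15. These counts are tied, since the fold divides by the background. The 17 peaks form only 7 regions, and the 3 lists share 1 input, so the same input reads enter the background of a gene up to 3 times. The pileup was above the median of the list in 11 and below it in 5. A −log10 q of 10 or more was reached by 2 of 7 member peaks in IP 1, 2 of 5 in IP 2 and 1 of 5 in IP 3, against 42.7%, 46.8% and 49.1% of all peaks. The 5 member regions found in every list had a median mean fold of 5.25, and the other 258 had 8.35. Their median mean pileup was 24.3 reads against 30 for the others, with RNU5B-1, RNU5A-1 and RNU4-2 at ranks 201, 207 and 216 of 263 from the top. The median of the mean background was 2.84 times the genome average for the members and 1.91 times for the others.

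**Figure D3:**
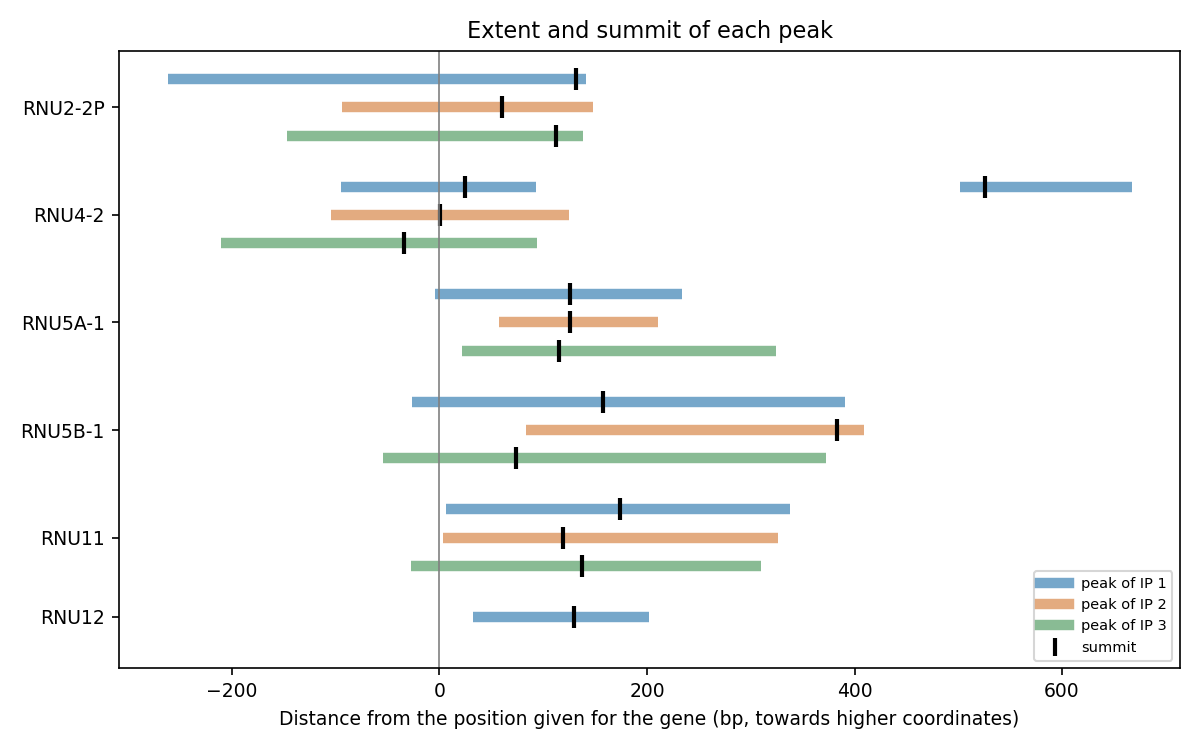
Extent (bars) and summit (black ticks) of each of the 17 peaks, by gene and immunoprecipitation, against the distance in bp from the position given for the gene. At RNU5A-1 the summits coincide within 11 bp, at RNU5B-1 they spread over 309 bp, and the isolated bar at the right of RNU4-2 is the peak found in IP 1 alone.

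Of the 17 peaks, 10 covered the given position. In 16 of 17 the summit was on the side of higher coordinates, by 1 to 526 bp, and the exception was IP 3 at RNU4-2, at 34 bp on the other side. The 17 peaks form only 7 regions, and the rule does not say which part of a gene its position marks. No direction is therefore read from this count. The rule gives neither strand nor length of the genes, so whether a summit falls in a promoter, in the transcribed part or downstream of it was not determined. At RNU5A-1 the summits lay 126, 126 and 115 bp from the position. At RNU11 they lay 174, 119 and 137 bp from it, and at RNU2-2P 132, 60 and 112 bp. The summit of RNU12 in IP 1 was 130 bp away.

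How well the summits of the lists met differed between the U5 genes. At RNU5A-1 they lay within 11 bp of each other, whereas over the 258 other regions found in every list the median range was 37 bp. At RNU5B-1 they spread over 309 bp, with distances of 158, 383 and 74 bp from the position, the fourth widest range of the 263 regions. Peaks at RNU5B-1 were also wide, with 418 bp in IP 1, 327 bp in IP 2 and 428 bp in IP 3. Of all peaks in the same lists, 97.8%, 96.8% and 95.1% were narrower. The range was 72 bp at RNU2-2P, 59 bp for the peaks over RNU4-2 and 55 bp at RNU11.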

How the data were processed

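The data are peak lists of 3 immunoprecipitations, each called against the same 1 input. Per the submitters' processing notes, the build was hg19 and the tools included Bowtie2 2.3.3.1 and, for peaks, MACS2 2.1.1.20160309. Per the labels, reads were single-end and 50 bases long. Per the file headers, MACS2 ran on alignments named as filtered and without duplicates, with no peak model, extensions of 163, 155 and 179 bp, a q threshold of 0.05 and a genome of 2.7e+09 effective bp. The calls rested on 24037735, 23683012 and 19228143 tags against 28755427 input tags, per the file headers.

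The deposited pileup is a signal in extended reads, and the deposited fold enrichment is a ratio. The −log10 p and −log10 q are as deposited by the authors. Positions are hg19, counted from 1.

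The gene positions were read from the rule that defines the genes. The members and all lists were chosen with earlier results of these data known, and the genes named are all 8 members. Background was recovered from pileup and fold. A Poisson tail computed from it matched every deposited −log10 p within 0.000212. Whole input reads were accepted within 0.02 reads. Peaks overlapping by at least 1 bp were merged. Where a list had several peaks at a gene, the highest fold was used for gene means, and ranks among regions use each merged region. The functions were tested on simulated data. Python 3.11.15, NumPy 2.4.6, SciPy 1.17.1 and Matplotlib 3.10.9 were used.

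None of RNU2-2P, RNU4-1, RNU4-2, RNU5A-1, RNU5B-1, RNU11, RNU4ATAC and RNU12 had an entry among the RefSeq promoter sequences used, so no sequence is shown and the planned search for short promoter words was not run. The RefSeq gene table (GRCh38.p14) matched all 8 genes and served for names and gene order only. Other snRNA genes were not placed against peaks, as an hg19 annotation was not used here.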

Additional observations from a re-analysis of the deposited data

How the results depend on the processing

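Of 167 recomputed values, 162 stayed within 1 SD over the immunoprecipitations or, for counts, within 1.5 times. This share is not a measure of stability, as many of these outcomes were fixed in advance. Leaving out 1 of 3 values cannot shift a mean by 1 SD. The other choices of peak or reach changed the compared gene means at RNU4-2 alone. RNU12, with a peak in 1 list, has no SD, and its values were held to the relative width of the 95% Poisson interval of its pileup. Its background of 1.91 reads became 2.73 without the pseudocount. With a −log10 q of at least 10, genes with a peak in every list fell to 1 and genes with a peak in any list to 3. Of all peaks, only 42.7% in IP 1, 46.8% in IP 2 and 49.1% in IP 3 reached that value. The share of all merged regions that keep a peak at it was not computed, so nothing about the members is read from the fall. When a peak counted for every position in reach, 7 genes had a peak in any list, since RNU4-1 gained the peak of IP 1, with a pileup of 17, a background of 1.77 reads and a fold of 6.50. Without the pseudocount the mean background was 3.89 reads at RNU11, 3.78 at RNU5A-1 and 4.65 at RNU5B-1, against 3.02, 2.94 and 3.85, by construction of the formula. Leaving out 1 immunoprecipitation in turn gave 5 genes with a peak in every remaining list and 5 to 6 with a peak in any. These counts follow from the presence of peaks per list given above and are no separate check. No paired analysis was possible because the single input has no peak list. Pileups of 15 to 56 reads limit the precision of each value.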
